A study of Mus musculus with 6 samples.

Results

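The translation initiation factors described here are the 55 genes whose symbol begins with Eif and a digit, of 24343 genes in the tables. They include the kinases that phosphorylate eIF2 (Eif2ak genes) and the proteins that bind eIF4E (Eif4ebp genes). Members were chosen by symbol and not by any measured value. RNA sequencing was done on natural killer (NK) cells sorted from spleens of female C57BL/6 mice, with 3 libraries from mice given complexes of IL-15 (IL-15C) and 3 from mice given complexes of IL-2 (IL-2C). The sort kept NK1.1+ NKp46+ cells and left out cells with CD3 or binding to the CD1d tetramer. The labels give no dose, time, age or carrier protein, and untreated cells were not analysed here, so every difference is between the 2 cytokine treatments. The labels leave unsaid whether each library is a mouse of its own. The p-values therefore reflect the spread among these samples, which may be technical.

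Initiation is the step of protein synthesis at which a ribosome is assembled on an mRNA at its start codon. eIF2 carries the initiator tRNA to the small ribosomal subunit, eIF1, eIF1A and eIF3 hold that subunit ready, and the eIF4 factors bind the mRNA cap and unwind the leader. Lymphocytes increase protein synthesis when cytokines activate them, and the kinase complex mTORC1, which acts downstream of cytokine receptors, releases eIF4E from its binding proteins. IL-15 and IL-2 share the beta and gamma chains of their receptor. Much of this control acts on proteins, by phosphorylation, and RNA sequencing does not measure it.

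Transcripts of the initiation machinery differed little between IL-15C and IL-2C cells. Of the 53 members tested, 0 were higher and 0 lower at an adjusted p under 0.05 (limma on log2(FPKM + 1), Benjamini-Hochberg over 9831 genes), where 6.44% of all tested genes were called. At an unadjusted p under 0.05 there were 3 higher members, Eif4e3, Eif2ak2 and Eif3a, and 3 lower ones, Eif4a2, Eif5 and Eif5a2. Of all tested genes 26.9% passed this limit, 6.48% higher and 20.4% lower. The count of 6 members was 12 after median scaling and 11 after quantile normalization. The median log2 change was 0.002 for the members and -0.04 for all tested genes, and 41 members had a change of less than 0.1 in either direction. The members' median ranged from -0.031 without IL-15C replicate 1 to 0.046 after median scaling. FPKM scales the fragments of a gene by its transcript length and by the mapped fragments of the library. Every change is the IL-15C mean less the IL-2C mean, and ± after a log2 change is its standard error (SE).

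The intervals, each for a single gene and not adjusted for the number of genes, show how large an undetected difference could be under this scaling. Leaving out the gene pair Eif3j1 and Eif3j2, whose values could not be separated, the 95% intervals of all 51 other tested members lay between -0.357, the lower bound of Eif5a2, and 0.284, the upper bound of Eif4e3, on the log2 scale. The interval stayed within 0.2 of 0 for 34 of these 51 members and within 0.3 for 50. All 3 values of one group lay above those of the other for 12 members, 5 higher and 7 lower in IL-15C, where 33.3% of all tested genes were separated in this way (8.15% higher and 25.1% lower).

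**Figure D1:**
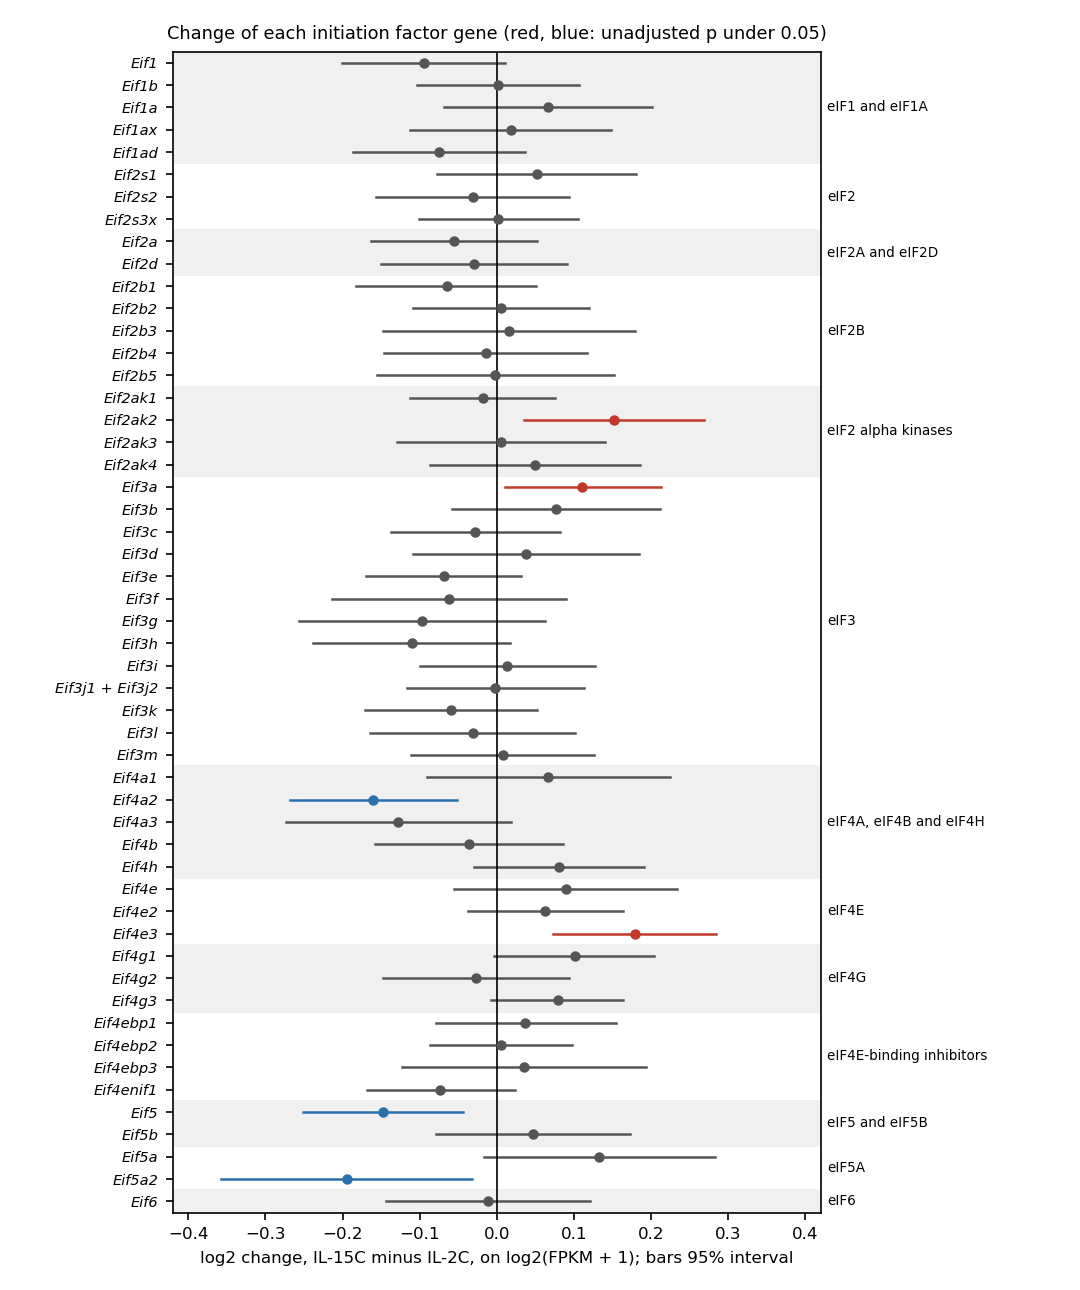
Log2 change of each tested initiation factor gene on the log2(FPKM + 1) scale, IL-15C minus IL-2C, as a point with its 95% interval from limma, grouped by factor. Eif3j1 and Eif3j2 are drawn as their sum, and the 6 coloured genes had an unadjusted p under 0.05 (red higher, blue lower in IL-15C); no gene passed after adjustment.

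Read as Poisson counts, the bounds that the authors gave with each value sum to 23526567 to 27212608 fragments per library. This is a rough guide to depth only, since for genes such as Eif4g2 and Eif4g3 the implied number does not follow the FPKM. Ncr1, the gene of NKp46, stood at 755 to 832 FPKM. Of 10 NK cell genes 0 were called. At an unadjusted p under 0.05 there were 0 higher and 3 lower, beside 6.48% and 20.4% of all tested genes. The 3 were Klrd1, Klrk1 and Eomes, with separated groups. Their log2 changes were -0.218, -0.179 and -0.173 (limma adjusted p of 0.0512, 0.0591 and 0.0755). Summed markers of other cells lay at 50.5 to 71.6 FPKM under IL-15C and 52.4 to 57.1 under IL-2C for 6 T cell genes, and at 7.90 to 42.6 and 15.4 to 66.6 for 9 genes of B cells and MHC class II. They were 39.0 to 107 and 39.6 to 58.3 for 6 granulocyte genes, and 1.81 to 23.2 and 3.71 to 4.86 for 8 red cell and platelet genes. For 6 myeloid genes they were 266 to 282 and 220.5 to 234.5, of which Itgax, which NK cells also express, made up most. Cd3g and Cd3d made up most of the T cell sum, while Cd4, Cd8a and Cd8b1 were at most 0.077 FPKM in any library. No marker in these lists was at 0 in all libraries. Of them 1 was called, Itgax, and the part of other cells in the results below was not tested. The top of the IL-15C range came from IL-15C replicate 1 in each of these marker sums except the myeloid one. S100a8, for example, was at 42.6 FPKM there and at 16.25 and 22.0 in the other IL-15C libraries. The same library, IL-15C replicate 1, had the highest value of the 6 libraries for 23 of 53 members, against 25.0% of all tested genes. IL-2C replicate 1 had it for 18 members, against 33.8% of all tested genes.

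FPKM is per length, so levels of different members can be set side by side. The highest mean over the 6 libraries was 268 FPKM for Eif1, which guards start codon choice. It was followed by Eif3f at 194, Eif5a at 168.5, Eif3h at 152, Eif4a2 at 142, Eif4a1 and Eif4g2 at 117 each, and Eif3e at 103. The lowest means above 0 were 3.76 for Eif2ak4, 3.62 for Eif2b3 and 3.51 for Eif5a2. Eif4e1b, the oocyte form of the cap-binding protein, and Eif2s3y, the Y-linked gene of eIF2 gamma, were listed at 0 in all 6 libraries, and the mice were female. The members summed to 0.755% to 0.780% of all FPKM of a library. The eIF3 genes held 35.8% of the members' sum, the eIF4A, eIF4B and eIF4H genes 17.6% and the eIF1 and eIF1A genes 14.1%. Within groups the median coefficient of variation of tested members was 4.92% in IL-15C and 4.45% in IL-2C, beside 4.59% and 4.75% for all tested genes.

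**Figure D2:**
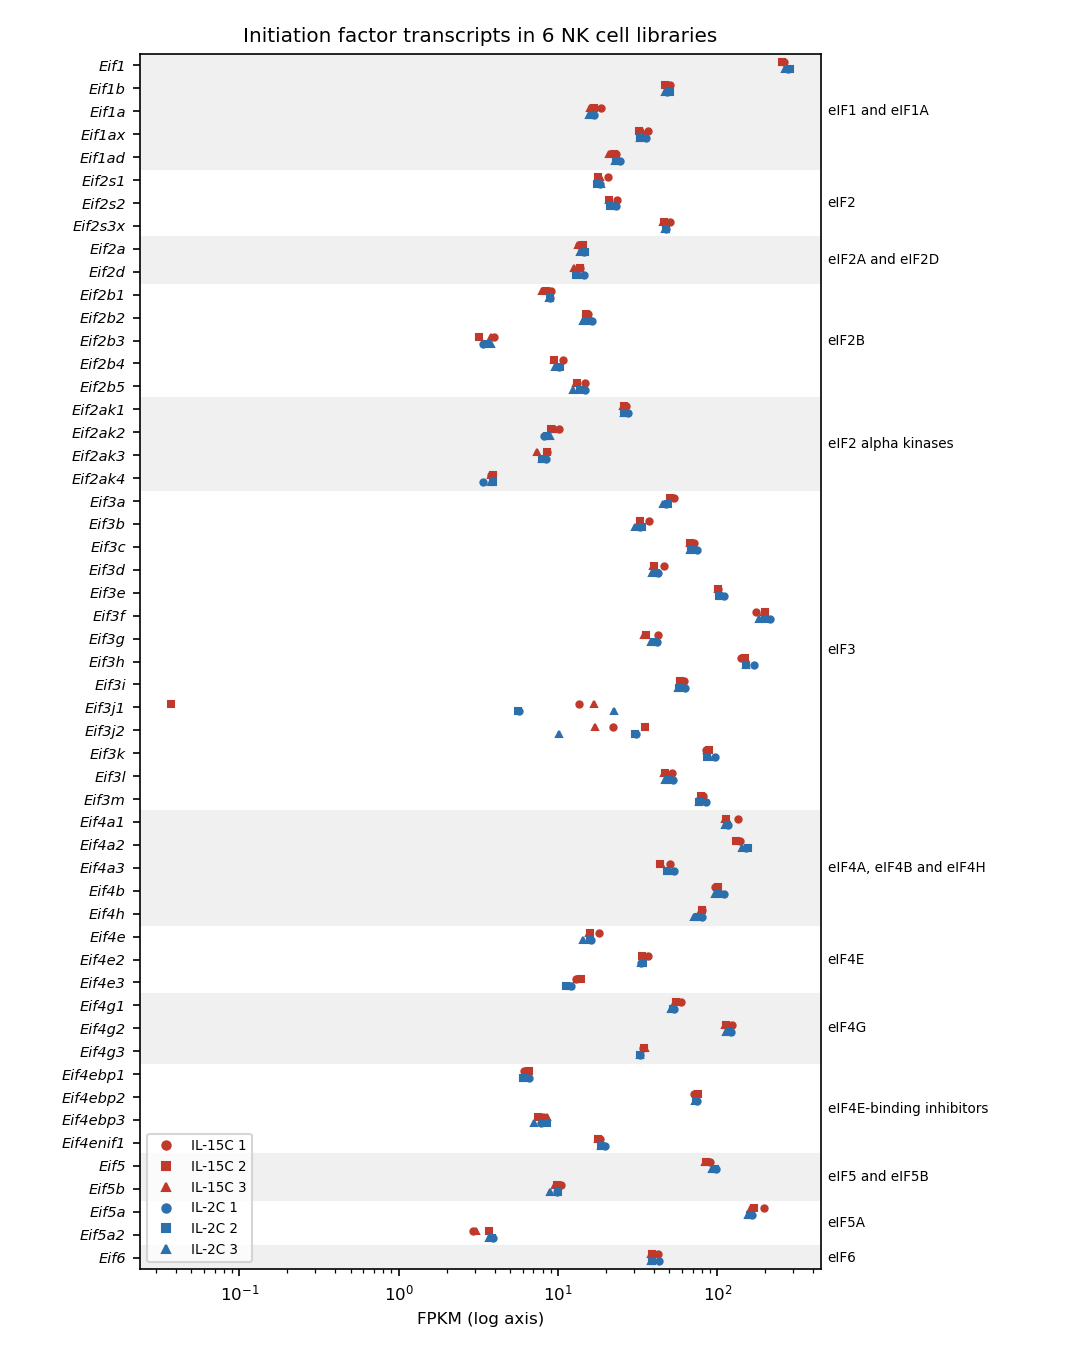
FPKM on a log axis of the 53 tested initiation factor genes in each library, red for IL-15C and blue for IL-2C, with one symbol per replicate. Eif1 stands highest and Eif5a2 lowest by mean, the points of both groups lie close together for most genes, and Eif3j1 and Eif3j2 spread widely within both groups.

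Among the factors that prepare the small ribosomal subunit, Eif1 was measured at 262, 256 and 258 FPKM under IL-15C and 277, 285 and 267 under IL-2C. All 3 IL-15C values were below the lowest IL-2C value, a log2 change of -0.095 ± 0.047 with a limma adjusted p of 0.228. Its paralog Eif1b averaged 48.6 ± 1.79 (SD, n = 3) and 48.5 ± 1.82, and its groups overlapped. Eif1a and Eif1ax, which both encode eIF1A, changed by 0.07 ± 0.06 and 0.02 ± 0.06. Eif1ad, which encodes a protein with an eIF1A-like domain, changed by -0.075 ± 0.049. Summed over the 5 genes, the mean was 381 ± 8.31 FPKM under IL-15C and 398 ± 12.2 under IL-2C.

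The 3 expressed genes of eIF2 overlapped between groups. Eif2s1, the alpha subunit that the stress kinases phosphorylate, was at 20.7, 17.8 and 18.4 FPKM under IL-15C and 18.4, 17.6 and 18.6 under IL-2C. Apart from the higher value of IL-15C replicate 1, the libraries lay close together. Eif2s3x, the X-linked gamma subunit, was at 50.3, 46.5 and 45.8 FPKM under IL-15C and 47.3, 47.9 and 47.1 under IL-2C, with a log2 change of 0.002 and a 95% interval of -0.101 to 0.105. The beta subunit Eif2s2 changed by -0.03 ± 0.06. The complex summed to 88.2 ± 5.34 and 87.8 ± 1.09 FPKM. Eif2a and Eif2d, which can also deliver an initiator tRNA, changed by -0.06 ± 0.05 and -0.03 ± 0.05.

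eIF2B recharges eIF2 with GTP and is the target of its phosphorylated form. Its 5 genes had log2 changes of -0.07 to 0.02, 2 above and 3 below 0, with overlapping groups throughout. The catalytic subunit Eif2b5 averaged 13.6 ± 0.999 FPKM and 13.7 ± 1.14. The complex summed to 50.9 ± 2.56 under IL-15C and 51.4 ± 2.26 under IL-2C.

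The 4 eIF2 alpha kinases sense different stresses and phosphorylate the same site of eIF2. Eif2ak2 encodes PKR, which binds double-stranded RNA and is induced by interferon. It was at 10.1, 9.09 and 9.62 FPKM under IL-15C and 8.18, 8.58 and 8.86 under IL-2C. Every IL-15C value was above every IL-2C value, a log2 change of 0.15 ± 0.05 with a limma adjusted p of 0.103. Its adjusted p ranged from 0.0673 to 0.255 over 18 alternative analyses. The difference from the other kinases was not tested.

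Eif2ak1, the heme-regulated kinase HRI, was the most abundant of the 4 at 26.8, 26.0 and 25.6 FPKM under IL-15C and 27.4, 26.1 and 25.9 under IL-2C. Eif2ak3, the kinase PERK of the endoplasmic reticulum, was at 8.59, 8.48 and 7.36 under IL-15C and 8.36, 7.99 and 7.925 under IL-2C. Eif2ak4, the amino acid sensor GCN2, was at 3.81, 3.91 and 3.80 under IL-15C and 3.36, 3.92 and 3.775 under IL-2C. The groups of these 3 kinases overlapped, with log2 changes of -0.02 ± 0.04, 0.005 ± 0.06 and 0.05 ± 0.06. By level the kinases were ordered Eif2ak1, Eif2ak2, Eif2ak3 and Eif2ak4. The values of Eif2ak2 and Eif2ak3 overlapped in these libraries, while the other neighbours did not.

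eIF3, the largest initiation factor, is a scaffold on the small subunit. Of its 14 genes 0 were called. Of the 12 outside the Eif3j pair, 5 had changes above 0 and 7 below. Eif3a, the subunit around which the complex assembles, was at 53.4, 50.8 and 50.2 FPKM under IL-15C and 47.6, 49.2 and 45.8 under IL-2C. Every IL-15C value was higher, a log2 change of 0.11 ± 0.05 with a limma adjusted p of 0.152, which reached 0.0385 after scaling each library to a common median. The other core subunits Eif3b and Eif3c changed by 0.08 ± 0.06 and -0.03 ± 0.05.

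Of the other eIF3 subunits, Eif3h and Eif3e had 3 IL-15C values that were all below the IL-2C values. Eif3h, a subunit with an MPN domain, was at 141, 150 and 146.5 FPKM under IL-15C and 170, 152 and 151 under IL-2C, a log2 change of -0.11 ± 0.06 with a limma adjusted p of 0.244. Eif3e averaged 101 ± 0.579 and 106 ± 4.41. The values of Eif3f, the most abundant subunit, overlapped at 176 to 198 under IL-15C and 184 to 213 under IL-2C. Eif3d, Eif3i and Eif3m had changes of 0.008 to 0.04. Eif3g, Eif3k and Eif3l had changes of -0.10 to -0.03. The complex summed to 980 ± 7.42 FPKM under IL-15C and 1006 ± 54.7 under IL-2C.

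The loosely bound eIF3j subunit has a pair of genes whose separate values carried no usable measurement. The deposited tables place Eif3j1 on chromosome 2 at 122028580 to 122053632 and Eif3j2 on the same chromosome at 122028583 to 122053631 in mm10, almost the same interval. RefSeq places Eif3j2 on chromosome 18 in that build. Of the windows of 50 bases in the longest coding sequence annotated by GENCODE, 99.7% of those of Eif3j1 and 98.9% of those of Eif3j2 occurred in the other gene. The sequences were taken by symbol, and whether that of Eif3j2 is the entry measured on chromosome 2 was not checked. No such shared window was found in the other 8 paralog pairs examined, among them Eif1 and Eif1b, Eif4a1 and Eif4a2, Eif5a and Eif5a2, and Eif4g1 and Eif4g3.

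Eif3j1 was listed at 13.6, 0.0374 and 16.9 FPKM under IL-15C and 5.67, 5.57 and 22.4 under IL-2C. Eif3j2 was listed at 22.0, 35.1 and 16.97 under IL-15C and 30.8, 30.3 and 10.2 under IL-2C. Where one was high the other was low, in both groups. Their sum was 35.7, 35.1 and 33.9 FPKM under IL-15C and 36.5, 35.8 and 32.6 under IL-2C. The share of Eif3j1 in the sum ran from 0.11% to 68.7%. The log2 change of the sum was -0.002 ± 0.05 with a 95% interval of -0.116 to 0.113, beside -0.64 ± 0.96 for Eif3j1 and 0.14 ± 0.38 for Eif3j2 taken alone.

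**Figure D3:**
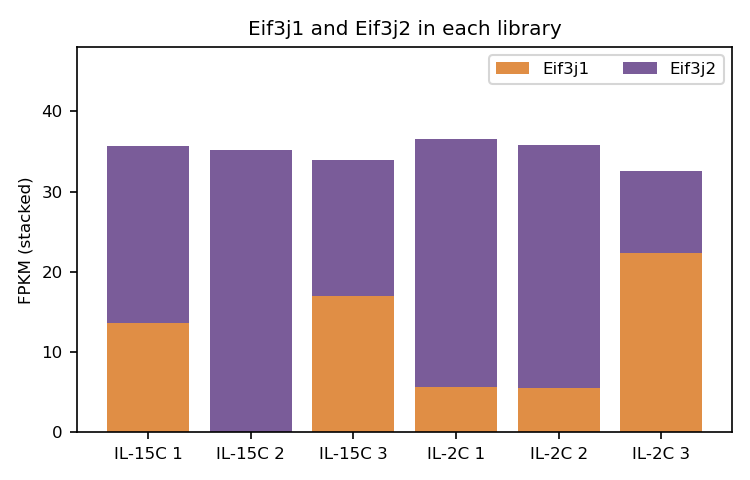
Stacked FPKM of Eif3j1 and Eif3j2 in each library, with the replicate number after the group. The division between the genes differs widely between libraries of one group, from 0.11% to 49.95% Eif3j1 in IL-15C and 15.5% to 68.7% in IL-2C, while the height of the stack stays between 32.6 and 36.5.

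The cap-binding complex eIF4F joins eIF4E, the scaffold eIF4G and the helicase eIF4A. Of the 3 tested eIF4E genes, the 3 eIF4G genes and the 5 genes of eIF4A and its cofactors eIF4B and eIF4H, 0 were called. Eif4e3, which encodes a cap-binding protein of the eIF4E family, had the smallest p of all members. It was at 12.98, 14.0 and 13.2 FPKM under IL-15C and 11.99, 11.3 and 11.9 under IL-2C. Every IL-15C value was higher, a log2 change of 0.18 ± 0.05, a ratio of means of 1.14 and a limma adjusted p of 0.0540.

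Eif4e3 lay at the threshold. Its sign was the same in 18 alternative analyses, and its adjusted p ranged from 0.00765 with library weights to 0.175 without IL-2C replicate 2. It passed in 5 of them, which were library weights, median scaling, quantile normalization, a mean of at least 5 FPKM and leaving out IL-15C replicate 1. Eif4e itself was at 18.1, 15.9 and 15.6 FPKM under IL-15C and 16, 15.96 and 14.4 under IL-2C. Eif4e2, a relative linked to translational repression, was at 36.9, 33.8 and 34.6 under IL-15C and 33.1, 34.1 and 33.4 under IL-2C. Both overlapped between groups, with log2 changes of 0.09 ± 0.06 and 0.06 ± 0.04.

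Of the scaffolds, Eif4g1 was at 59.0, 54.9 and 54.2 FPKM under IL-15C and 53.2, 52.5 and 50.9 under IL-2C. Eif4g3 was at 34.0, 34.6 and 35.3 under IL-15C and 32.55 to 32.86 under IL-2C. The groups of both were separated, with IL-15C higher by 0.10 ± 0.05 and 0.08 ± 0.04 on the log2 scale and limma adjusted p of 0.196 and 0.218. Eif4g1 passed with an adjusted p of 0.0478 after median scaling. Eif4g2, which lacks the eIF4E-binding part, was at 123, 113 and 111 under IL-15C and 121.5, 120 and 113 under IL-2C, with overlapping groups.

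The helicase has a pair of paralogs, Eif4a1 and Eif4a2. Eif4a2 was at 138.5, 132 and 133 FPKM under IL-15C and 151, 156.5 and 143.5 under IL-2C. Every IL-15C value was lower, a log2 change of -0.16 ± 0.05 with a limma adjusted p of 0.0764, which was 0.00892 with library weights. Its locus overlaps that of Rfc4 and holds small nucleolar RNA genes, and without strand reads from the shared stretches cannot be told apart. How many reads this concerns was not measured, and the other members were not examined for such overlap. Eif4a1 was at 135, 113 and 112 under IL-15C and 117, 115 and 111 under IL-2C. Its groups overlapped with a change of 0.07 ± 0.07, which was -0.019 without IL-15C replicate 1. Eif4a3, a helicase of the exon junction complex, changed by -0.13 ± 0.06, Eif4b by -0.04 ± 0.05 and Eif4h by 0.08 ± 0.05.

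Shares within a paralog family do not depend on how a library was scaled. Eif4a1 made up 49.4%, 46.3% and 45.8% of Eif4a1 plus Eif4a2 under IL-15C and 43.7%, 42.35% and 43.65% in IL-2C. Eif4g1 made up 27.3%, 27.1% and 27.0% of the Eif4g genes under IL-15C, beside 25.7%, 25.5% and 25.9% under IL-2C. The groups did not overlap in either share, and the Eif4a1 share varied more within IL-15C than it differed between the nearest libraries of the groups.

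The share of Eif1b in Eif1 plus Eif1b was 15.8% ± 0.36 (SD, n = 3) under IL-15C and 14.9% ± 0.07 under IL-2C, without overlap. That of Eif5a2 in the Eif5a pair was 1.80% ± 0.32 and 2.32% ± 0.03, also without overlap. The shares of Eif1a, Eif4e3 and Eif4ebp2 in their families overlapped. These 7 shares were formed with the values known and are given without a test, and 3 libraries against 3 allow no exact two-sided permutation p below 0.1.

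**Figure D4:**
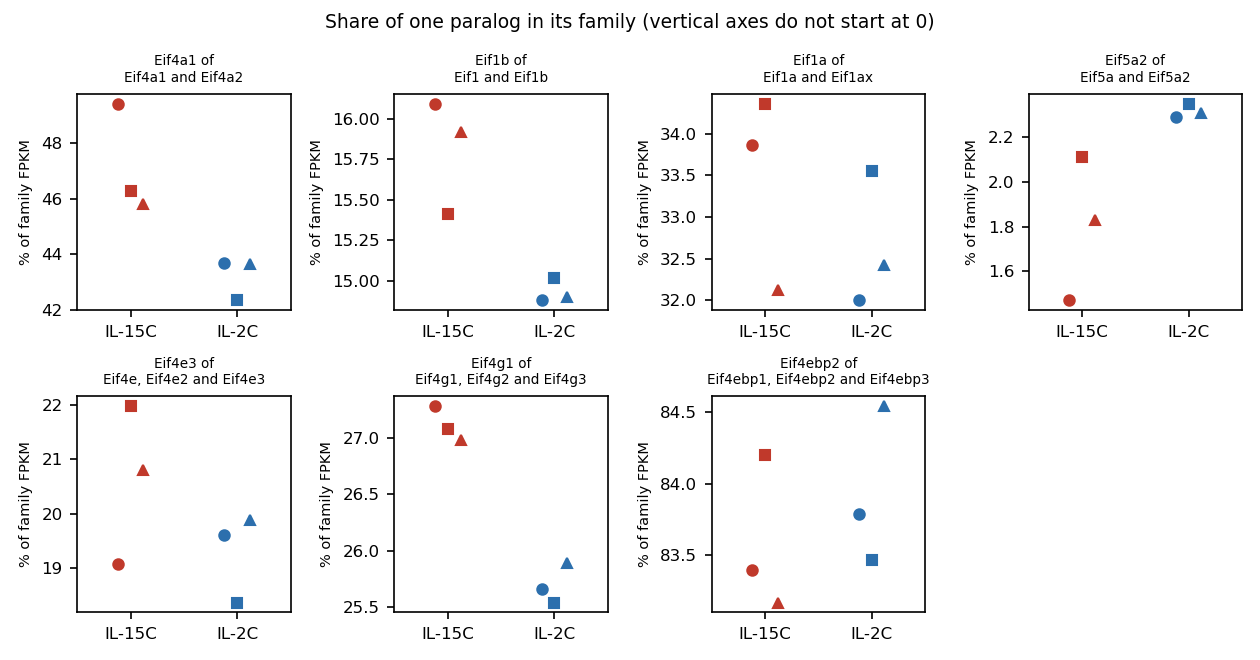
Share of one gene in the summed FPKM of its paralog family, in percent, with one point per library (circle, square and triangle for replicates 1, 2 and 3) and vertical axes that do not start at 0. Eif4a1, Eif1b and Eif4g1 take a larger share in all IL-15C libraries and Eif5a2 a smaller one, while the other 3 shares overlap.

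The proteins that bind eIF4E and hold it from eIF4G are inactivated by mTORC1. Eif4ebp2 was the most abundant of their genes, at 71.5, 75.3 and 74.1 FPKM under IL-15C and 74.4, 73.6 and 72.1 under IL-2C. Eif4ebp1 was at 6.16, 6.62 and 6.46 under IL-15C and 6.57, 5.99 and 6.12 under IL-2C. Eif4ebp3 was at 8.065, 7.51 and 8.54 under IL-15C and 7.84, 8.59 and 7.07 under IL-2C.

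The groups of these 3 genes overlapped, with 95% intervals of the log2 change of -0.087 to 0.097 for Eif4ebp2, -0.079 to 0.154 for Eif4ebp1 and -0.123 to 0.193 for Eif4ebp3. Eif4enif1, whose product carries eIF4E to the nucleus and to P bodies, averaged 18.0 ± 0.381 FPKM under IL-15C and 19.0 ± 0.627 under IL-2C. Its groups were separated, a log2 change of -0.07 ± 0.04 with a limma adjusted p of 0.303. Inhibitor genes and Eif4enif1 together summed to 106 FPKM in both groups, with SDs of 1.68 and 2.29, beside 65.0 ± 2.58 and 60.7 ± 0.898 for the cap-binding genes.

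Of the factors of the late steps, Eif5 activates the GTPase of eIF2 at the start codon. It was at 90.4, 84.7 and 83.9 FPKM under IL-15C and 97.5, 96.8 and 92.8 under IL-2C. Every IL-15C value was lower, a log2 change of -0.15 ± 0.05 with a limma adjusted p of 0.0834. It passed in 3 of 18 alternatives, with 0.0102 under library weights, 0.0442 after quantile normalization and 0.0481 without IL-15C replicate 1. The highest adjusted p of the 18 was 0.229. Eif5b, which joins the ribosomal subunits, changed by 0.05 ± 0.06.

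eIF5A is the only protein known to carry the modified amino acid hypusine, and it acts mainly in elongation and termination. Eif5a was at 195, 170.5 and 164 FPKM under IL-15C and 166, 159 and 156 under IL-2C. The groups overlapped, and the change was 0.13 ± 0.07 (limma adjusted p = 0.233). Its low paralog Eif5a2 was at 2.92, 3.67 and 3.05 under IL-15C and 3.89, 3.84 and 3.70 under IL-2C, all IL-15C values being lower. Its log2 change of -0.19 ± 0.07 was the most negative of the 51 members outside the Eif3j pair, with an adjusted p of 0.125. Eif6, which keeps the large ribosomal subunit from joining too early, was at 42.5, 38.6 and 38.5 under IL-15C and 43.2, 39.15 and 38.2 under IL-2C, with overlapping groups.

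**Figure D5:**
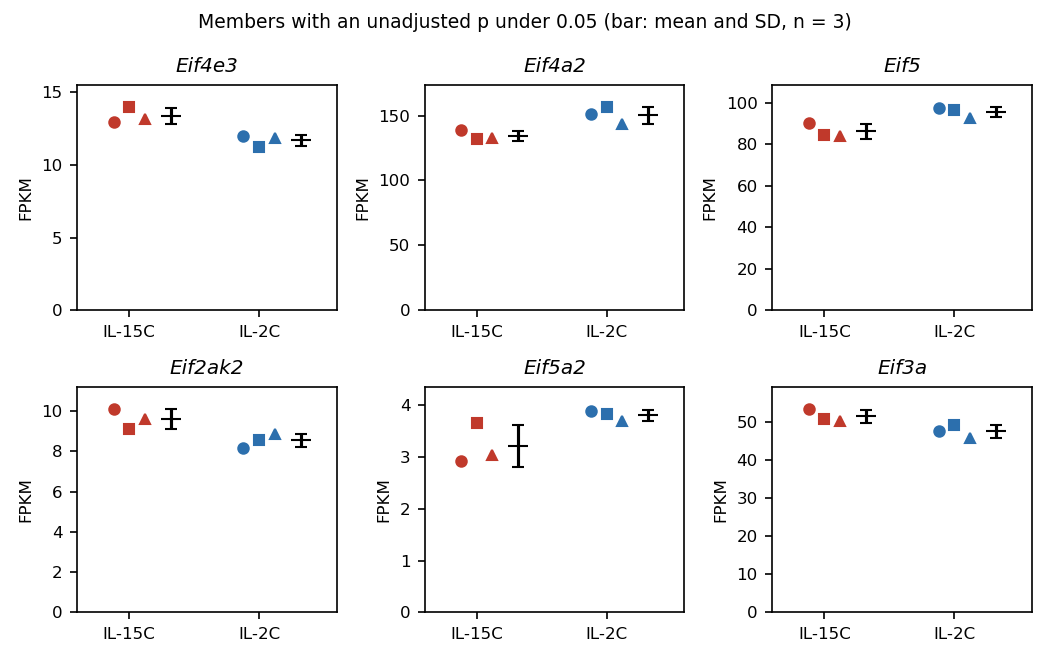
FPKM per library of the 6 members with an unadjusted p under 0.05, with the mean and SD of 3 libraries beside the points (circle, square and triangle for replicates 1, 2 and 3). IL-15C and IL-2C do not overlap in any panel, and the gap is small against the level, with ratios of means from 0.844 for Eif5a2 to 1.14 for Eif4e3.

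Promoters of several members hold an E-box, CACGTG, the sequence bound by MYC, a growth regulator known to act on genes of protein synthesis. RefSeq promoter sequences (GRCm38.p6, the mm10 assembly, 250 bases before to 50 after each start) were matched by symbol to 43 of the 55 members. CACGTG, which reads the same on both strands, occurred in 10 of these, or 23.3%, beside 8.09% of all 27025 genes with a promoter. Genes with several listed starts have more sequence in which it can occur. The share of all genes also counts genes too low to be tested here, and the share among the 9831 tested genes was not computed. A window is shown for each of the 9 members with a match before a start, on the gene's strand with the E-box in capitals. Where several matches lay before a start, the nearest of them is shown. In Eif3a the only match lies after the start, and Eif4g1 has a further match after its start.
Eif4g1, chr16:20672656-20672695, plus strand, 54 bases before the start: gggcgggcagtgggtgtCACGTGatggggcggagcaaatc
Eif4e, chr3:138527187-138527226, plus strand, 64 bases before an alternative start: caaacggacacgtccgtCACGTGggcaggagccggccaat
Eif4a1, chr11:69672590-69672629, minus strand, 189 bases before the start: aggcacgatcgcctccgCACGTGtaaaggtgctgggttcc
Eif5a, chr11:69921438-69921477, minus strand, 74 bases before one of its starts: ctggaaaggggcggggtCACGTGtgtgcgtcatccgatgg
Eif4h, chr5:134639483-134639522, minus strand, 96 bases before the start: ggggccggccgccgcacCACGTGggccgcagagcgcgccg
Eif1b, chr9:120492565-120492604, plus strand, 24 bases before the start: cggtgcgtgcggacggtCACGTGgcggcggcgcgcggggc
Eif3f, chr7:108934330-108934369, plus strand, 68 bases before the start: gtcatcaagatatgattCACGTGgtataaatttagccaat
Eif3k, chr7:28981910-28981949, minus strand, 44 bases before the start: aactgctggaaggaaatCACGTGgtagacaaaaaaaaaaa
Eif5a2, chr3:28781143-28781182, plus strand, 117 bases before the start: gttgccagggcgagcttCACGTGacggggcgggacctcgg

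The 10 members with an E-box had a median log2 change of 0.074, with 7 above and 3 below 0. The 31 other tested members with a promoter sequence, leaving out the Eif3j pair, had a median of -0.014, with 14 above and 17 below 0. Those with an E-box include Eif3a, Eif4g1 and Eif5a with changes of 0.10 to 0.13, and also Eif5a2, Eif3f and Eif3k with changes of -0.19 to -0.06. Of those above 0, Eif3a, Eif4a1, Eif4e, Eif4g1, Eif4h and Eif5a were highest in IL-15C replicate 1. Without that library the changes were 0.085 for Eif3a, 0.064 for Eif4g1, 0.058 for Eif5a, 0.026 for Eif4e and -0.019 for Eif4a1. Eif5a2 was at -0.145 there. The contrast is a description of these genes and was not tested. It was not computed for all tested genes with and without an E-box. A match does not show that a factor bound there.

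In lists of other translation genes outside the family, 1 gene passed. Of 24 tested genes on a list drawn up as other initiation genes, 1 rose, 0 fell and 23 did not pass. Among all tested genes 1.72% were called higher and 4.72% lower. Those shares are 169 and 464 genes, and the split was 325 higher and 207 lower after median scaling. Larp1, which binds mRNAs of the translation machinery and represses them when mTORC1 is inactive, was at 27.8, 25.9 and 25.6 FPKM under IL-15C and 21.8, 21.2 and 20.4 under IL-2C. Every IL-15C value was higher, and Larp1 rose by 0.31 ± 0.05 on the log2 scale with a limma adjusted p of 0.0130. The adjusted p was 0.0649 with no filter on low values, and 0.0518 or 0.0674 when replicate 1 or 2 of IL-2C was left out, so it did not pass in these 3 settings.

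Pdcd4, which inhibits the helicase eIF4A, averaged 152 ± 1.84 FPKM under IL-15C and 171 ± 9.60 under IL-2C, with separated groups and a limma adjusted p of 0.0729. Paip1, which links poly(A)-binding protein to the initiation factors, averaged 9.96 ± 0.371 and 11.5 ± 0.503 (limma adjusted p = 0.0545). Neither passed. At an unadjusted p under 0.05 this list held 4 higher genes, Larp1, Cyfip2, Bzw2 and Mcts2, and 4 lower ones, Paip1, Pdcd4, Impact and Paip2, beside 26.9% of all tested genes. Of 10 elongation factor genes, 6 release and recycling genes, 22 genes of mTORC1 and MNK signalling, 10 genes of eIF2 alpha dephosphorylation and the stress response and 6 mitochondrial translation genes, 0 passed in either direction. These 5 lists held 0, 2, 1, 3 and 1 genes at an unadjusted p under 0.05, with Mtif3 counted in both the release and the mitochondrial list. The 3 of the stress list were Ddit4, an mTORC1 inhibitor, with a change of 0.26 ± 0.08 (limma adjusted p = 0.0711), Sesn2 with 0.20 ± 0.08 and Ddit3 with -0.14 ± 0.05. Their median log2 changes were -0.03, -0.005, -0.014, -0.018 and -0.011, beside -0.04 for all tested genes. Atf4, the stress transcription factor whose translation rises when eIF2 is phosphorylated, averaged 87.4 ± 4.07 and 89.7 ± 5.68.

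The authors' deposited table of group values, from the program Cuffdiff, listed all 55 members. Of the 53 with a mean of at least 1 FPKM there, 0 had group intervals that did not overlap. Of all 10124 rows at that level it was 84, or 0.83%, a share so low that the members' 0 is near the background. In that table Eif4e3 was given as 18.2 FPKM under IL-15C and 15.4 under IL-2C, Eif4a2 as 182 and 198, and Eif5 as 117 and 126. Eif3j1 was given as 13.8 and 14.9 with lower bounds at 0. The table was scaled separately and its levels are not comparable with those above. It pools the same libraries and adds no independent measurement.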

How the data were processed

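RNA was sequenced from 6 libraries of sorted splenic NK cells. Sample titles gave the group and replicate number. The submitters' processing notes name mm10, TopHat2 2.0.13 and Cufflinks 2.2.1, and the annotation of genes was not given in the sources used here. FPKM values with interval bounds, 1 table per library, and a table of group FPKM were deposited by the authors, per the file headers. No label states the strand of the libraries, so members that overlap another gene can hold its reads. FPKM values are no counts, and limma was used in place of a count model.

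Rows of one symbol were summed, 10 genes with a failed estimate were left out, and no member was affected by either step. The deposited bounds were read as lying 2 SD of a Poisson count from the estimate, which gives roughly 190 to 20028 fragments per library for tested members outside the Eif3j pair. These cover counting error only. Of rows with 5 to 200 implied fragments, 29.4% to 31.3% per library came within 0.02 of a whole number, so they were not used as counts.

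Log2(FPKM + 1) of the 9831 genes with a mean of at least 1 FPKM was tested by limma 3.58.1 (R 4.3.3) with an intensity trend, two-sided, with Benjamini-Hochberg adjustment and a threshold of 0.05. This scale understates the change of low genes. Members with 0 in all libraries were not tested. Values per library are given for members with an unadjusted p under 0.05 and for a set of factors named with the design, and called genes of the other lists are named. Genes beyond these, such as Eif1, Eif4e2, Eif3h, Pdcd4, Paip1, Ddit4 and Atf4, were chosen after their values were seen. The members and lists were chosen with earlier results of these data known. Tables and plots were made in Python 3.11.15 (matplotlib 3.10.9, scipy 1.17.1, numpy 2.4.6, pandas 2.3.3). Gene positions are 1-based.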

Additional observations from a re-analysis of the deposited data

How the results depend on the processing

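The count of 0 called members held under pseudocounts of 0.1 and 5, no filter, TPM scaling, no trend, keeping 1 row per symbol and the replicate block. It also held with Eif3j1 and Eif3j2 summed, a setting chosen after seeing the data. With no filter 0.092% of all genes were called, so the 0 there says little about the members. A mean of at least 5 FPKM called 1 higher (Eif4e3), median scaling 3 higher (Eif3a, Eif4e3, Eif4g1), quantile normalization 1 higher and 1 lower (Eif4e3, Eif5) and library weights 1 higher and 3 lower (Eif4e3, then Eif1, Eif4a2, Eif5). Leaving out each library in turn gave 0 to 1 higher and 0 to 1 lower, the calls being Eif4e3 and Eif5 without IL-15C replicate 1. No called value reversed. Uncalled members changed sign in up to 10 of 53 cases under a setting.

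Over all genes, 169 were higher and 464 lower. The counts were 6 and 9 with no filter, 325 and 207 after median scaling, 307 and 269 after quantile normalization, and 440 and 1667 with library weights. Leaving out each library gave 14 to 176 higher and 15 to 575 lower, lowest without IL-2C replicate 2 and highest without IL-15C replicate 1. Median scaling moved the median change of all genes from -0.04 to 0.001. For the other translation lists, 1 higher and 0 lower became 0 higher with no filter, 4 higher under median scaling, 4 higher and 1 lower under TPM scaling and under quantile normalization, 5 and 5 with library weights, 1 lower at a mean of at least 5 FPKM, and 0 to 1 higher and 0 to 1 lower with each library left out. The summed ratio of the eIF4E-binding inhibitors was 0.997, and 1.03 after median scaling.

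Replicate numbers are shared between groups, but same-numbered libraries did not deviate together (correlations of deviations across genes of -0.029, -0.156 and -0.024). No library correlated best with its own number. Deviations from a group mean constrain each other, so these correlations cannot tell whether libraries of one number were handled together. With the replicate block, 171 genes were higher and 346 lower, 0 members were called, and the other translation lists held 2 higher genes. Causes were not tested. With 3 libraries a group, the intervals given show the precision reached among these libraries, which need not be that among mice.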
